A study of Mus musculus with 10 samples.

Results

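Cholesterol synthesis and sterol control were followed across brain, spleen and co-cultured regulatory T cells (Tregs) through 28 genes, chosen by name out of 55401 gene IDs. The members are 18 enzymes of sterol synthesis, the 5 genes of the SREBP switch (Srebf1, Srebf2, Insig1, Insig2 and Scap), the sterol carrier Stard4, the efflux pumps Abca1 and Abcg1, and the LXR receptors Nr1h2 and Nr1h3. Gene counts from RNA-seq were available for all 28 genes in co-cultured Tregs and for 26 of them in Tregs taken from mice.

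The 10 libraries fall into 5 groups of 2, and every group used cells of Foxp3-hCD2 knock-in mice on a C57BL/6J background, in which human CD2 on the cell surface reports Foxp3, the lineage factor of Tregs. iB-Tregs (A) were Tregs from spleen and lymph nodes that were grown for 6 days on neonatal brain glial cells, mostly astrocytes, with IL-2 at 20 ng/ml and antibodies to CD3 and CD28, both at 2 µg/ml. iB-Tregs (B) received in addition IL-33 at 20 ng/ml and serotonin at 10 µM, and iB-Tregs (C) received everything given to (B) plus the chemokines CCL1 and CCL20 at 20 ng/ml each. Ischemia-Tregs came from the brains of male mice 28 days after a transient occlusion of the middle cerebral artery, and SP-Tregs from the spleen. The hCD2+ cells were taken from the cultures with magnetic beads. Whether both libraries of a group stem from different mice or cultures is not stated in the labels, and the p-values therefore reflect a spread that could be technical. With 2 libraries a group, values of 2 groups often fail to overlap by chance, and the share of all genes that do so was not counted. Statements below on overlap therefore describe values and add nothing to a test.

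Total counts lay between 15628261 and 16388161 in the 6 iB-Treg libraries, and between 5186728 and 6634583 in the 4 libraries from brain and spleen. In the deposited table the spleen and brain counts stood up to 19 rows below their gene IDs and were moved back before use. This placed 24994 IDs, and Hmgcs1 and Acat2 were not among them. Mitochondrial rRNA held 0.128% to 0.178% of the placed counts in iB-Treg libraries, against 16.1% to 17.1% in the spleen and brain libraries. Depth and this share separate the same groups as culture does. In comparisons of iB-Tregs with SP-Tregs or Ischemia-Tregs, differences in how libraries were made cannot be told apart from culture. The Treg marker Foxp3 was found in all groups, at 240 to 296 CPM (counts scaled to one library size) in iB-Treg libraries. It was at 796 and 842 CPM in Ischemia-Treg libraries and 701 and 729 CPM in SP-Treg libraries. The 12 markers of Tregs and T cells, Foxp3 among them, summed to 5194 to 5712 CPM in the iB-Treg libraries. Their sum was 7635 and 8065 CPM in Ischemia-Tregs and 5973 and 6032 CPM in SP-Tregs. The summed level of 17 measured microglia and macrophage markers was 5107 to 8815 CPM in the iB-Treg libraries, 136 and 167 CPM in Ischemia-Tregs and 58.7 and 69.7 CPM in SP-Tregs. The summed level of 16 astrocyte markers was 1520 to 1845 CPM in the iB-Treg libraries, 1518 and 1555 CPM in Ischemia-Tregs and 545 and 633 CPM in SP-Tregs, and most of each sum was Vim, which T cells also express. Of the other astrocyte markers, Gfap stayed between 0.93 and 3.45 CPM in the iB-Treg libraries and at 0 to 0.28 CPM in the other groups, and Gja1 was at 5.54 to 13.6 CPM in iB-Treg libraries, 1.22 and 0.944 CPM in Ischemia-Tregs and 0 in SP-Tregs. In bulk RNA, more cells of a type and more RNA per cell cannot be told apart.

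Animal cells build cholesterol from acetyl units through mevalonate, farnesyl diphosphate, squalene and lanosterol. When membranes lack sterol, Scap carries the factor encoded by Srebf2 from the endoplasmic reticulum to the Golgi, where it is cleaved and then switches on the synthesis genes. With ample sterol, Insig1 and Insig2 hold Scap back. Oxysterols, which form when sterol is plentiful, activate the LXR receptors, which in turn induce the pumps Abca1 and Abcg1 and the lipid synthesis factor Srebf1. T cells that divide need new membrane sterol, and effector T cells are known to raise synthesis and lower efflux on activation.

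Levels of the members differed widely when CPM was divided by exonic length. In iB-Tregs (B) Abca1 (56.5 CPM per kb) and Srebf2 (47.1) stood highest of the 26 members with a row in all groups, with Nr1h2 (41.2) and Insig1 (39.3) next, and in iB-Tregs (A) Srebf2 (51.7) stood above Nr1h2 (41.1). In Ischemia-Tregs Abcg1 (67.7 CPM per kb) and Abca1 (56.5) led, followed by Srebf2 (29.0). In SP-Tregs Srebf2 stood first at 39.8 CPM per kb, then Abcg1 at 24.0 and Nr1h2 at 18.9, while Abca1 was at 3.92 CPM per kb. Most enzymes lay far below these regulators. Tm7sf2, a sterol reductase, was measured at 0.281 CPM per kb in Ischemia-Tregs and 0.352 CPM per kb in SP-Tregs, and Nr1h3, the LXR receptor of macrophages, at 0 in Ischemia-Tregs and 0.334 CPM per kb in SP-Tregs.

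**Figure D1:**
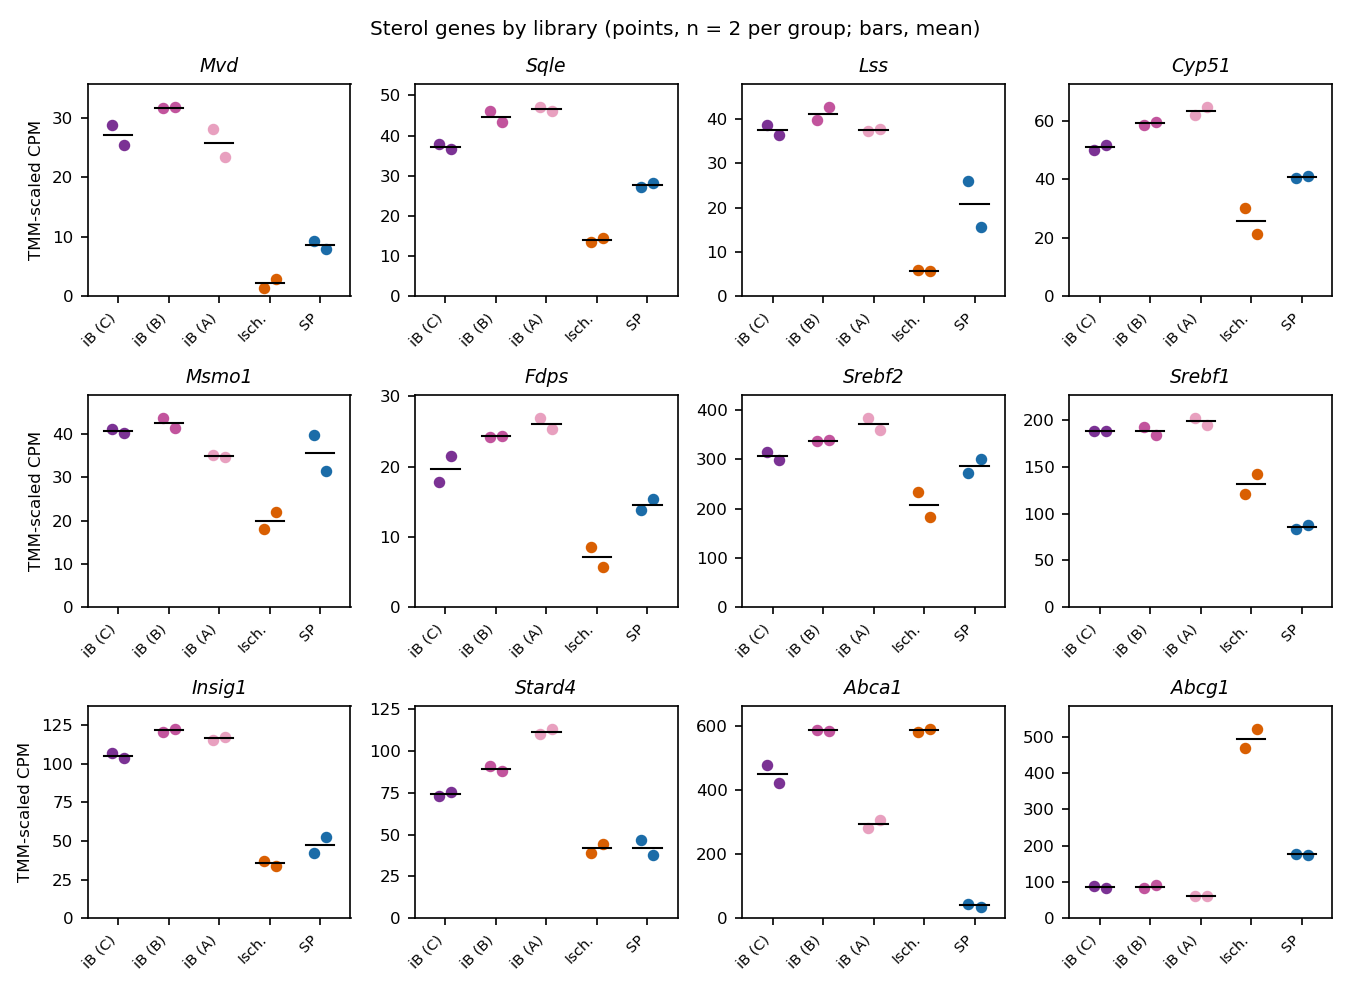
Levels of 12 members in every library, in TMM-scaled CPM on axes that start at 0, with groups from left to right iB-Treg (C), (B), (A), Ischemia-Treg and SP-Treg. Points are libraries (n = 2 per group) and bars are means. The 6 enzymes shown are lowest in Ischemia-Tregs, Abca1 is lowest in SP-Tregs and Abcg1 is highest in Ischemia-Tregs.

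The first comparison asked how Tregs of the brain after stroke differ from splenic Tregs. In Ischemia-Tregs the efflux pumps were far above their level in SP-Tregs, while 5 synthesis enzymes and Srebf2 were below it. Of 24 members tested, 4 rose, 6 fell and 14 did not pass (edgeR quasi-likelihood test, Benjamini-Hochberg adjusted p under 0.05), against 28.9% of 10337 genes that passed, 15.5% as rises and 13.4% as falls. The median log2 fold change of the members was -0.38, and that of all genes tested was -0.005. Tm7sf2 and Nr1h3 were too low to test, and Hmgcs1 and Acat2 had no placed row.

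Abca1, which loads cholesterol and phospholipid onto lipid-poor apolipoproteins, was measured at 581 and 589 CPM in Ischemia-Tregs, against 45.7 and 35.6 CPM in SP-Tregs. Both brain libraries lay far above both spleen libraries, a 14.3-fold difference (log2 fold change 3.84 ± 0.13 SE, adjusted p = 3.8e-16). Abcg1, which moves sterol to mature lipoprotein particles, was measured at 467 and 520 CPM in Ischemia-Tregs and 177 and 174 CPM in SP-Tregs, 2.82-fold higher in the brain (adjusted p = 3.5e-10). The ratio of Abca1 to Abcg1 CPM was 1.24 and 1.13 in Ischemia-Tregs and 0.258 and 0.204 in SP-Tregs. Nr1h2, the LXR receptor found in most cells, rose in Ischemia-Tregs with a log2 fold change of 0.46 ± 0.16 (SE), at 92.8 and 81.2 CPM against 66.2 and 60.6 CPM in SP-Tregs. This call had an adjusted p of 0.034 and was lost without SP-9 (adjusted p = 0.12), without SP-10 (0.21) and without Ischemia-4 (0.16). The calls of Abca1 and Abcg1 held with each library left out, with log2 fold changes of 3.69 to 4.03 for Abca1 and 1.42 to 1.57 for Abcg1. Nr1h3 had no count in either Ischemia-Treg library, against 1.40 and 0.28 CPM in SP-9 and SP-10.

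Microglia express Abca1, and 8 of the 11 testable microglia and macrophage markers were higher in Ischemia-Tregs. Their level was low, with Lyz2 at 24.8 and 7.55 CPM in Ischemia-Tregs and 0.599 and 0 CPM in SP-Tregs. Set against the summed marker level of each library, Abca1 was 0.0510 to 0.0666 times that sum in iB-Tregs, 3.49 and 4.34 times in Ischemia-Tregs and 0.779 and 0.510 times in SP-Tregs. Of the 17 measured markers, Adgre1 alone was at 0 in both Ischemia-Treg libraries, and Cx3cr1 was at 13.4 and 8.18 CPM in Ischemia-Tregs against 0.200 and 0 CPM in SP-Tregs. Of 4 testable astrocyte markers 1 rose, and of 6 B cell markers 1 fell. What part such cells had in the pump levels was not tested.

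**Figure D2:**
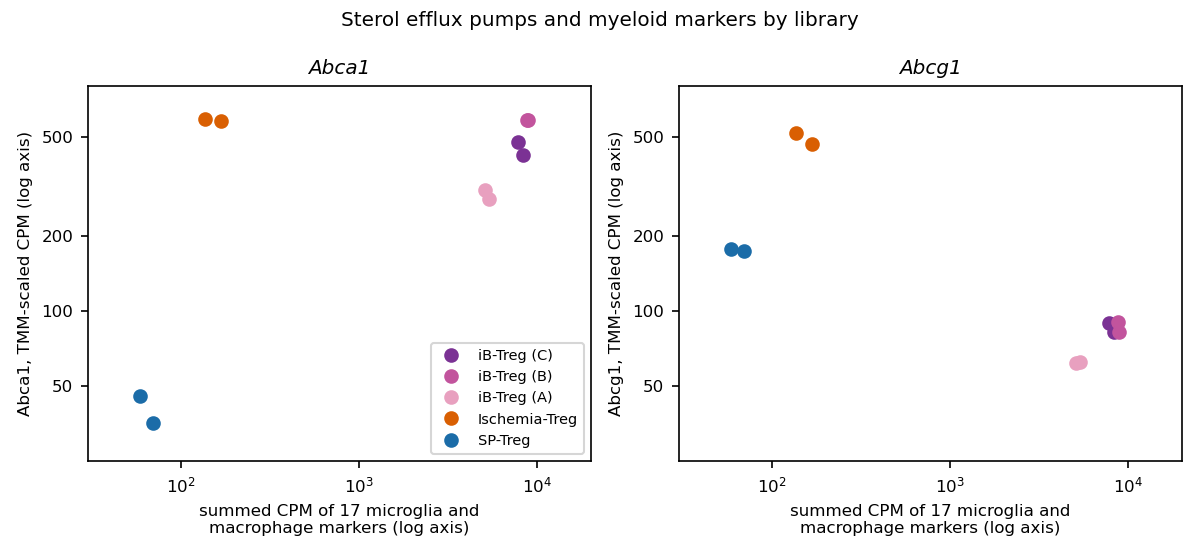
Abca1 (left) and Abcg1 (right) against the summed level of 17 microglia and macrophage markers in each of the 10 libraries, both in CPM on log axes, with colours for the groups. iB-Tregs (B) reach 586 and 584 CPM of Abca1 at a marker sum of 8815 and 8776 CPM, where their points overlap, and Ischemia-Tregs reach 581 and 589 CPM at a sum of 167 and 136 CPM.

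Promoter sequence was examined for the members with a RefSeq window (GRCm38.p6, 250 bases before to 50 bases after a start site). 23 members had such a window. The other 5, Sqle, Fdps, Fdft1, Stard4 and Abcg1, had none and were not searched for any pattern. The classic LXR pattern, AGGTCA and AGGTCA with 4 bases between them, matched 0.0152% of all 32851 windows on either strand and no member. A looser pattern with the same spacing, GGTNA and GGTCA with 5 bases between them, was added after the expression values were seen. As this pattern was chosen with those values known, its matches are no test of the members that rose. It matched 0.207% of all windows on either strand, and among the 23 members with a window it matched Abca1 and Srebf1 alone. Both are listed here because they were among the genes that rose in Ischemia-Tregs, and capitals mark the match, which reads as the reverse complement. The Abca1 window is chr4:53159846-53160145 on the minus strand, and the Srebf1 window is chr11:60210422-60210721 on the minus strand. In the Abca1 window the match begins 67 bases before the start site, and in the Srebf1 window 182 bases before it.
Abca1: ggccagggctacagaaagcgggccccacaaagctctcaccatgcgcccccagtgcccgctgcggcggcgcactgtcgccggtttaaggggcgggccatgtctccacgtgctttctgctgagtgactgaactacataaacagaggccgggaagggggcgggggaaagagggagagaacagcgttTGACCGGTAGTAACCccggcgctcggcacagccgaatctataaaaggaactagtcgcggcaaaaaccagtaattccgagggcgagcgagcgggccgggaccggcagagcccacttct
Srebf1: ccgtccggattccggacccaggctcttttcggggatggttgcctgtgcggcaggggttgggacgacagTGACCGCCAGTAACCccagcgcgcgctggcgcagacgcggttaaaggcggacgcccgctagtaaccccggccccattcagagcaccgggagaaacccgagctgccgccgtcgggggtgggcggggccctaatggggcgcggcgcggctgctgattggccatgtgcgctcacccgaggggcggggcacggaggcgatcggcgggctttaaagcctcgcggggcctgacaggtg

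Among the SREBP genes, the paired factors moved in opposite directions in Ischemia-Tregs. Srebf1, which drives lipid synthesis and is itself an LXR target, was measured at 121 and 142 CPM in Ischemia-Tregs against 83.4 and 87.9 CPM in SP-Tregs, and it rose by a log2 fold change of 0.62 ± 0.14 (SE, adjusted p = 0.0019). Its call held with each library left out (log2 fold change 0.50 to 0.74). Srebf2, the driver of sterol synthesis, was measured at 233 and 183 CPM in Ischemia-Tregs against 272 and 301 CPM in SP-Tregs. It fell by 0.45 on the log2 scale (SE 0.12, adjusted p = 0.0085), and the call was lost without Ischemia-3 (log2 fold change -0.29, adjusted p = 0.13). The ratio of Srebf2 to Srebf1 CPM was 1.93 and 1.29 in Ischemia-Tregs and 3.26 and 3.42 in SP-Tregs, so that the groups did not overlap. Insig1, a retention protein that is itself a target of the Srebf2 product, was at 37.2 and 33.7 CPM in Ischemia-Tregs and 41.9 and 52.6 CPM in SP-Tregs and did not pass (log2 fold change -0.40, adjusted p = 0.17). Insig2 and Scap did not pass either, with log2 fold changes of 0.04 and 0.23, and the 2 Scap values of Ischemia-Tregs, 107 and 60.7 CPM, lay on both sides of those of SP-Tregs. Without Ischemia-3, Scap passed as a rise (log2 fold change 0.57, adjusted p = 0.0058).

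Among the enzymes, 5 of 15 tested fell in Ischemia-Tregs and 12 of the 15 had a negative log2 fold change. No enzyme rose in this fit by edgeR, also at an unadjusted p under 0.05, or by DESeq2, but Mvk passed as a rise without Ischemia-3 (adjusted p = 0.019). DESeq2 did not call the falls of Cyp51 (adjusted p = 0.12) and Msmo1 (0.053) or the rise of Nr1h2 (0.10), which left 4 members that fell and 3 that rose. Lss, which closes squalene epoxide into lanosterol, had the most secure fall, at 5.83 and 5.66 CPM in Ischemia-Tregs against 25.9 and 15.6 CPM in SP-Tregs (log2 fold change -1.85 ± 0.39 SE, adjusted p = 0.00098). Mvd, which makes isopentenyl diphosphate, was at 1.46 and 2.83 CPM in Ischemia-Tregs against 9.38 and 7.96 CPM in SP-Tregs (log2 fold change -2.03 ± 0.62 SE, adjusted p = 0.016). Sqle, the oxygenase that commits squalene to sterols, was at 13.6 and 14.5 CPM in Ischemia-Tregs against 27.1 and 28.2 CPM in SP-Tregs (log2 fold change -0.97 ± 0.28 SE, adjusted p = 0.013). In all 3 genes both brain libraries lay below both spleen libraries. The demethylases of lanosterol fell too, Msmo1 by 0.84 (adjusted p = 0.016) and Cyp51 by 0.65 on the log2 scale (adjusted p = 0.046). Msmo1 was at 18.0 and 22.0 CPM in Ischemia-Tregs against 39.7 and 31.6 CPM in SP-Tregs, and Cyp51 at 30.1 and 21.4 CPM against 40.5 and 41.0 CPM.

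These falls depended on single libraries. Without SP-9 the fall of Srebf2 alone passed, and Lss had an adjusted p of 0.11, Mvd 0.25, Sqle 0.082, Cyp51 0.17 and Msmo1 0.24. Without SP-10, Mvd (0.091), Sqle (0.097) and Cyp51 (0.18) did not pass, without Ischemia-4 Mvd (0.071) and Msmo1 (0.052) did not, and without Ischemia-3 Cyp51 did not (0.19). All of these kept a negative log2 fold change. Other falls passed when a library was left out, those of Fdps (adjusted p = 0.027) and Dhcr7 (0.012) without Ischemia-4 and that of Nsdhl (0.014) without Ischemia-3. In a fit of all 10 libraries, whose spread is shared with the iB-Tregs, 13 of 26 members fell. These were the 6 above with Pmvk, Fdps, Fdft1, Nsdhl, Sc5d, Insig1 and Nr1h3. Ebp joined the 4 that rose (log2 fold change 0.41, adjusted p = 0.048). Over all genes 5030 of 13000 passed in that fit, and rises and falls were not counted apart.

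The enzymes that did not pass were mostly below their SP-Treg level. Fdps, which makes farnesyl diphosphate, was at 8.51 and 5.66 CPM in Ischemia-Tregs and 13.8 and 15.4 CPM in SP-Tregs (log2 fold change -1.01, adjusted p = 0.069), and the groups did not overlap. Nsdhl, another enzyme of lanosterol demethylation, was at 6.32 and 9.44 CPM in Ischemia-Tregs and 19.2 and 11.9 CPM in SP-Tregs (adjusted p = 0.070). Pmvk (-0.88), Dhcr7 (-0.53), Fdft1 (-0.42), Sc5d (-0.36) and Idi1 (-0.35) had negative log2 fold changes, and Hsd17b7 (0.52), Ebp (0.43) and Mvk (0.41) positive ones. The 2 Mvk values of Ischemia-Tregs, 19.4 and 3.77 CPM, enclosed those of SP-Tregs. The 774 exonic bases that Fdft1 shares with the opposite strand of Ctsb, a highly expressed protease gene, make its counts uncertain, as the counting by strand is not stated. The 16 enzymes with a placed row summed to 261 and 238 CPM in Ischemia-Tregs and 360 and 349 CPM in SP-Tregs. Stard4, which carries cholesterol between membranes, was at 39.1 and 44.7 CPM in Ischemia-Tregs and 46.9 and 37.5 CPM in SP-Tregs, and the values overlapped.

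**Figure D3:**
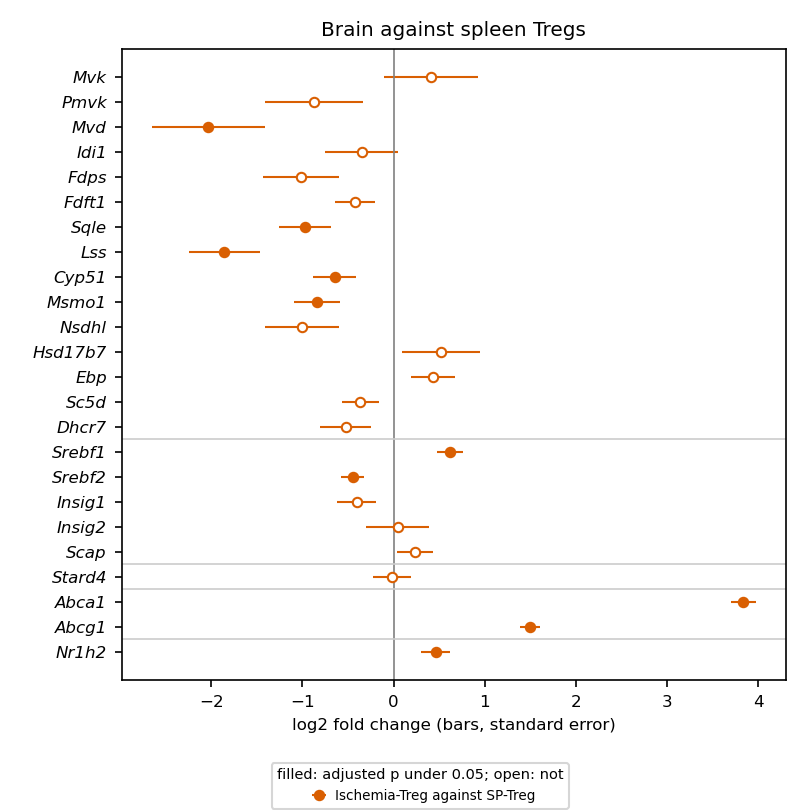
Log2 fold change of Ischemia-Tregs against SP-Tregs for the 24 members tested, with standard errors from edgeR, ordered by role (enzymes, SREBP switch, carrier, pumps, LXR receptor). Filled points passed an adjusted p of 0.05. The pumps lie at the far right, Abca1 at 3.84, and 12 of 15 enzymes lie below 0.

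Neighbouring pathways were set beside the members. Of 10 further LXR targets and cofactors tested, 3 rose in Ischemia-Tregs. Apoe, the lipoprotein component that accepts effluxed sterol, was at 145 and 125 CPM in Ischemia-Tregs against 4.99 and 7.39 CPM in SP-Tregs (log2 fold change 4.49, adjusted p = 3e-13), and Rxra, the partner of LXR, at 75.4 and 59.1 CPM against 38.3 and 44.4 CPM. Of 11 fatty acid synthesis genes 2 rose and 1 fell, among them the desaturase Scd2 at 336 and 353 CPM in Ischemia-Tregs against 157 and 155 CPM in SP-Tregs. Of 10 genes of SREBP processing 3 fell, including Sec24a, a coat protein that loads Scap for export, at 58.8 and 57.6 CPM against 139 and 107 CPM in SP-Tregs. Of 12 genes of the isoprenoid branch 2 fell, and of 13 genes of sterol storage and transport 3 rose. These list counts stand beside 15.5% of all genes tested that rose and 13.4% that fell in this comparison. Of 18 cell cycle genes 10 rose in the same comparison, with a median log2 fold change of 0.90.

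Co-cultured Tregs were next set against splenic Tregs. In iB-Tregs 7 to 9 of 16 enzymes and 4 or 5 of the 5 SREBP genes were higher than in SP-Tregs, and the pumps parted, with Abca1 higher and Abcg1 lower. Of 26 members tested, 15 rose and 3 fell in iB-Tregs (C), 16 rose and 3 fell in (B), and 18 rose and 2 fell in (A). Of all 13000 genes tested, 71.6% passed in (C), 72.3% in (B) and 72.8% in (A), where 39.3%, 39.6% and 40% rose and 32.2%, 32.7% and 32.7% fell. The median log2 fold change of the members was 0.39, 0.54 and 0.67 in (C), (B) and (A), against 0.137, 0.125 and 0.144 over all genes, and the members' values are read against that shift. The 3 comparisons share the SP-Treg libraries. Of 12 Treg and T cell markers 5 rose in each comparison, and 5, 7 and 6 fell in (C), (B) and (A). Between these groups 17 of 17 microglia and macrophage markers, 10 of 12 testable astrocyte markers and 18 of 18 cell cycle genes rose in each iB-Treg group, and 6 of 6 B cell markers fell. Their part in the results below was not tested.

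Among enzymes, Tm7sf2 and Mvd differed most. Tm7sf2 was at 8.46 and 8.94 CPM in iB-Tregs (C), 9.76 and 10.0 CPM in (B) and 10.9 and 11.1 CPM in (A), against 1.40 and 1.71 CPM in SP-Tregs, with log2 fold changes of 2.50, 2.69 and 2.84 and adjusted p of 3.4e-06 or less. It shares 532 exonic bases with Vps51 on the same strand. Mvd was at 28.8 and 25.5 CPM in (C), 31.7 and 31.8 CPM in (B) and 28.2 and 23.5 CPM in (A), against 9.38 and 7.96 CPM in SP-Tregs, with log2 fold changes of 1.63, 1.85 and 1.56. All iB-Treg libraries lay above both SP-Treg libraries for these genes. Lss (0.81, 0.94 and 0.81 in (C), (B) and (A)), Pmvk (1.01, 1.06 and 1.21), Sqle (0.43, 0.70 and 0.76), Fdps (0.45, 0.75 and 0.85) and Cyp51 (0.33, 0.54 and 0.64) also rose in all 3 groups on the log2 scale. The calls of Fdps and Cyp51 in (C) were lost without SP-9 (adjusted p = 0.20 and 0.082) and without C-Treg2 (0.18 and 0.067). Ebp, a sterol isomerase, rose in (B) and (A), and Sc5d, a late desaturase, rose in (A) by a log2 fold change of 0.28, a call lost without SP-9 (adjusted p = 0.13) and without A-Treg2 (0.077).

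Not every step rose. Idi1, which isomerises isopentenyl diphosphate directly after Mvd, was at 6.38 and 6.08 CPM in iB-Tregs (C), 7.18 and 7.58 CPM in (B) and 7.98 and 9.59 CPM in (A), against 13.6 and 11.4 CPM in SP-Tregs. It fell by 1.02, 0.77 and 0.52 on the log2 scale (adjusted p = 0.0011, 0.0069 and 0.049), and the call was lost without SP-9 in (B) (0.10) and in (A) (0.31), and in (A) also without A-Treg1 (0.23) and without A-Treg2 (0.056). Dhcr7, the last reductase of the pathway, was at 20.0 and 21.1 CPM in (C) and 22.5 and 23.0 CPM in (B), against 27.1 and 37.3 CPM in SP-Tregs. It fell in (C) and (B) by 0.62 and 0.47, and both calls were lost without SP-10 (adjusted p = 0.10 and 0.29), that in (B) also without B-Treg1 (0.097) and without B-Treg2 (0.079). Mvk, Fdft1, Msmo1, Nsdhl and Hsd17b7 did not pass in any of the 3 comparisons when all 10 libraries were fitted. Without SP-9, Hsd17b7 rose in all 3 (log2 fold change 1.15 in (C), 1.03 in (B) and 0.83 in (A)), Msmo1 in (C) (0.38) and (B) (0.44) and Nsdhl in (A) (0.60), and Dhcr7 fell in (A) (-0.49). Sc5d rose in (B) without SP-10 (0.27) and Ebp in (C) without C-Treg1 (0.40). Mvk rose in (B) (0.54) and (A) (0.68) in a fit of only the 4 libraries compared, and in both without a low-count filter.

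Stard4 and most genes of the SREBP switch rose in iB-Tregs. Insig1 was at 107 and 104 CPM in iB-Tregs (C), 121 and 122 CPM in (B) and 116 and 118 CPM in (A), against 41.9 and 52.6 CPM in SP-Tregs, with log2 fold changes of 1.17, 1.38 and 1.32 (adjusted p of 2e-08 or less). Stard4 was at 72.8 and 75.7 CPM in (C), 91.3 and 87.8 CPM in (B) and 110 and 113 CPM in (A), against 46.9 and 37.5 CPM in SP-Tregs. Srebf1 was at 188 and 188 CPM in (C), 193 and 184 CPM in (B) and 202 and 195 CPM in (A), against 83.4 and 87.9 CPM in SP-Tregs, with log2 fold changes of 1.14, 1.14 and 1.22. Srebf2 differed little, with log2 fold changes of 0.10 in (C), 0.24 in (B) and 0.38 in (A), of which that in (C) did not pass and that in (B) was lost without SP-9 (adjusted p = 0.15), without B-Treg1 (0.065) and without B-Treg2 (0.070). Insig2 rose in all 3 groups, by a log2 fold change of 0.70 in (C), 0.49 in (B) and 0.45 in (A), though in (B) not without SP-9 (0.056) or B-Treg1 (0.076) and in (A) not without SP-9 (0.074), SP-10 (0.061) or A-Treg1 (0.090). Scap rose in (A) and (C), by 0.52 and 0.35, and in (C) the call was lost without any of the 4 libraries SP-9, SP-10, C-Treg1 and C-Treg2 (adjusted p 0.054 to 0.21).

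The pumps moved apart in culture. Abca1 was at 477 and 421 CPM in iB-Tregs (C), 586 and 584 CPM in (B) and 281 and 305 CPM in (A), against 45.7 and 35.6 CPM in SP-Tregs, with fold changes of 10.9, 14.2 and 7.11. Abcg1 was at 89.9 and 82.3 CPM in (C), 82.4 and 90.1 CPM in (B) and 62.2 and 62.0 CPM in (A), against 177 and 174 CPM in SP-Tregs, and it fell in all 3 groups (adjusted p of 7.6e-09 or less), by 1.03 and 1.02 on the log2 scale in (C) and (B). All iB-Treg libraries lay above SP-Tregs for Abca1 and below them for Abcg1. The ratio of Abca1 to Abcg1 CPM was 4.53 to 7.11 over the 6 iB-Treg libraries. Nr1h2 was at 147 and 150 CPM in (C), 140 and 136 CPM in (B) and 145 and 131 CPM in (A), against 66.2 and 60.6 CPM in SP-Tregs. Nr1h3 was at 2.71 and 2.63 CPM in (C), 3.08 and 3.00 CPM in (B) and 9.69 and 7.48 CPM in (A), against 1.40 and 0.28 CPM in SP-Tregs. It passed in all 3, though without SP-10 it did not in (C) (adjusted p = 0.17) or (B) (0.093), and in (C) not without C-Treg1 (0.058).

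**Figure D4:**
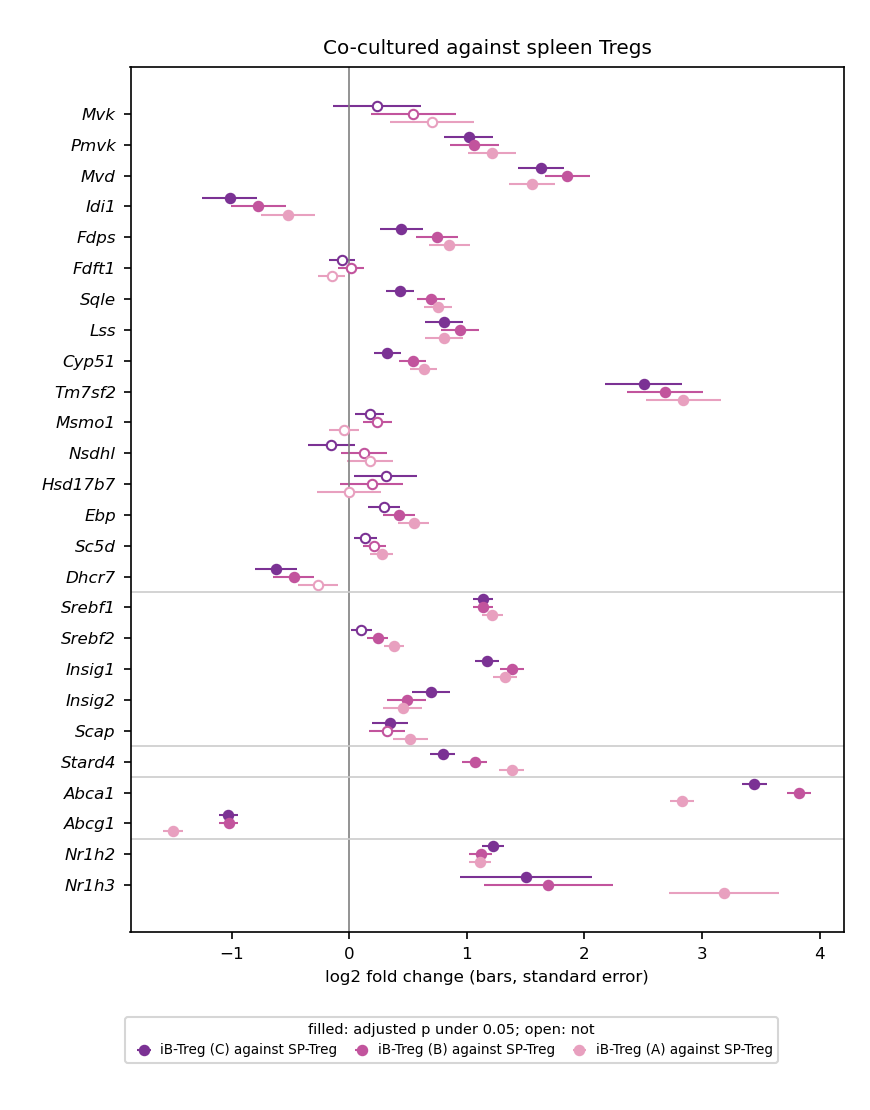
Log2 fold change of iB-Tregs (C), (B) and (A) against SP-Tregs for 26 members, with standard errors from edgeR, ordered by role. Filled points passed an adjusted p of 0.05. Idi1, Dhcr7 and Abcg1 lie to the left of 0 in all 3 groups, and Abca1, Tm7sf2 and, in (A), Nr1h3 lie furthest to the right.

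Lipid genes outside the set also differed in culture. Apoe was at 5380 and 5840 CPM in iB-Tregs (C), 7180 and 7148 CPM in (B) and 4042 and 3527 CPM in (A), against 4.99 and 7.39 CPM in SP-Tregs. Elovl6, a fatty acid elongase, was at 140 and 141 CPM in (C), 153 and 154 CPM in (B) and 199 and 222 CPM in (A), against 17.6 and 14.5 CPM. Of all 13000 genes tested, 39.3% rose and 32.2% fell in (C), 39.6% and 32.7% in (B), and 40% and 32.7% in (A). Of 12 LXR targets and cofactors tested, Apoe among them, 8 rose in each group, with 3, 3 and 4 falls in (C), (B) and (A). Of 13 fatty acid synthesis genes tested 7 rose in (C), 8 in (B) and 8 in (A), with 4, 2 and 3 falls. Fads2, a desaturase, had no count in SP-Tregs and was at least 39.5-fold higher in (C), 55.3-fold in (B) and 57.0-fold in (A), against a floor of 3 counts over the group. Of 19 genes of sterol storage and transport 13 rose and 2 fell in each group, among them Soat2, which esterifies sterol, at 42.9 and 43.7 CPM in (B) against 1.20 and 0.853 CPM in SP-Tregs. Of 10 SREBP processing genes 3 rose in each group, while 3 fell in (C) and (B) and 4 in (A). Of 12 isoprenoid genes 4, 3 and 4 rose in (C), (B) and (A), and 4 fell in each. The counts of these 2 lists lay near the shares over all genes.

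The sterol response element TCACNCCAC, through which the Srebf2 product acts, matched 1.24% of all 32851 promoter windows on either strand and, of the 23 members with a window, Hmgcs1 alone. Its window is shown because no other member window held this element, with the match in capitals, at chr13:119690101-119690400 on the plus strand. The E-box CACGTG matched 7.15% of all windows and 6 members (Hsd17b7, Sc5d, Dhcr7, Insig1, Scap and Abca1). The CCAAT box, bound by a frequent partner of SREBP factors, matched 37.4% of all windows and 18 members, which were 14 of the 15 enzymes and 4 of the 5 SREBP genes with a window. Some members had several windows, 32 in all, and a match in any of them was counted. A match describes the letters in these windows and nothing of binding.
Hmgcs1: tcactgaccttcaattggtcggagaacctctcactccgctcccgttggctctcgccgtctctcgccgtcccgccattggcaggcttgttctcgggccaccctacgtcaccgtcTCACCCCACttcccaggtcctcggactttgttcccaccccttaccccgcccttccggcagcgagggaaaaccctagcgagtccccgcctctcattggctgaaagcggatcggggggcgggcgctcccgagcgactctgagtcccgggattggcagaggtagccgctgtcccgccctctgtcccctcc

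iB-Tregs (B) were then set directly against Ischemia-Tregs, the brain cells that the culture was meant to resemble. Abca1 differed by less than its error, while 11 of 16 enzymes were higher and Abcg1 lower in culture. Of 26 members tested, 18 rose, 1 fell and 7 did not pass, against 69.6% of 13000 genes that passed, 38.6% as rises and 31% as falls, and the median log2 fold change was 0.68, also with Nr1h3 at its bound, against 0.139 over all genes. Abca1 was at 586 and 584 CPM in iB-Tregs (B) and 581 and 589 CPM in Ischemia-Tregs (log2 fold change 0.00 ± 0.08 SE). Abcg1 was at 82.4 and 90.1 CPM in iB-Tregs (B) and 467 and 520 CPM in Ischemia-Tregs, a log2 fold change of -2.52 (adjusted p = 5.4e-14). Mvd rose by a log2 fold change of 3.94 (31.7 and 31.8 CPM against 1.46 and 2.83 CPM in Ischemia-Tregs), Tm7sf2 by 2.99, Lss by 2.84 (39.8 and 42.7 CPM against 5.83 and 5.66 CPM), Pmvk by 1.91, Insig1 by 1.77, Fdps by 1.74 and Sqle by 1.67. Msmo1, Nsdhl, Cyp51, Stard4, Srebf2, Nr1h2, Sc5d, Srebf1, Insig2 and Fdft1 rose by 0.43 to 1.18 on that scale, and the call of Insig2 was lost without Ischemia-3 (adjusted p = 0.13) and without B-Treg1 (0.12). Nr1h3, at 3.08 and 3.00 CPM in iB-Tregs (B), had no count in Ischemia-Tregs and was at least 7.4-fold higher against a floor of 3 counts over the group. Idi1, Mvk, Ebp, Hsd17b7, Dhcr7 and Scap did not pass, but Mvk had log2 fold changes of 1.80 without Ischemia-4 (adjusted p = 0.00034) and -0.57 without Ischemia-3 (0.027), where the 2 brain libraries held 19.4 and 3.77 CPM. Scap passed without Ischemia-4 (log2 fold change 0.60, adjusted p = 0.00032). The 16 enzymes summed to 475 and 478 CPM in iB-Tregs (B) and 261 and 238 CPM in Ischemia-Tregs. In the same comparison 16 of 17 microglia and macrophage markers rose, with Lyz2 at 4552 and 4497 CPM in iB-Tregs (B) and 24.8 and 7.55 CPM in Ischemia-Tregs, while 7 of 12 astrocyte markers rose and 1 fell, 6 of 6 B cell markers fell, and 15 of 18 cell cycle genes rose. Their part was not tested.

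With IL-33 and serotonin added to the co-culture, both pumps were higher and Nr1h3 and Stard4 lower, while 16 of 18 enzymes did not pass. Between iB-Tregs (B) and (A), 4 of 28 members rose, 4 fell and 20 did not pass, against 30.1% of 14713 genes that passed, 15.6% as rises and 14.5% as falls, and the median log2 fold change was -0.06 against -0.004. Abca1 was at 586 and 584 CPM in (B) and 281 and 305 CPM in (A), higher by a log2 fold change of 1.00 ± 0.05 (SE, adjusted p = 1.8e-12), and Abcg1 at 82.4 and 90.1 CPM in (B) and 62.2 and 62.0 CPM in (A), 1.39-fold higher (adjusted p = 2.9e-06). Nr1h3 moved the other way, at 3.08 and 3.00 CPM in (B) and 9.69 and 7.48 CPM in (A) (log2 fold change -1.49 ± 0.19 SE, adjusted p = 1.7e-06). Stard4 fell, at 91.3 and 87.8 CPM in (B) and 110 and 113 CPM in (A) (log2 fold change -0.31, adjusted p = 9.6e-05). These 4 calls held with each library left out.

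Small differences in the other called genes between (B) and (A) rested on fewer libraries. Mvd rose by 0.30 and Msmo1 by 0.29, and Scap and Srebf2 fell by 0.19 and 0.13 on the log2 scale. Mvd was lost without A-Treg2 (adjusted p = 0.20), B-Treg1 (0.074) or B-Treg2 (0.077), and Msmo1 without B-Treg1 (0.068). Scap was lost without A-Treg1 (0.083), B-Treg1 (0.12) or B-Treg2 (0.060), and Srebf2 without the same libraries (0.24, 0.22 and 0.23). All other enzymes lay between -0.24 and 0.20, and the 16 enzymes summed to 475 and 478 CPM in (B) and 477 and 477 CPM in (A). Hmgcs1, which makes HMG-CoA, was at 69.2 and 73.5 CPM in (B) and 63.2 and 69.6 CPM in (A), where the ranges overlapped, and Acat2, a thiolase, at 13.3 and 13.4 CPM against 13.8 and 10.8 CPM.

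Of 19 genes of sterol storage and transport, 7 rose and 2 fell in iB-Tregs (B) against (A), beside 15.6% and 14.5% of all genes. Of 13 fatty acid synthesis genes 3 rose and 2 fell, and of 12 genes of the isoprenoid branch 1 rose and 2 fell. Ch25h, the enzyme that makes an oxysterol ligand, was at 15.4 and 17.3 CPM in (B) and 2.02 and 2.05 CPM in (A) (log2 fold change 3.00, adjusted p = 8.6e-13), and Apoe at 7180 and 7148 CPM in (B) and 4042 and 3527 CPM in (A). Of 12 LXR targets and cofactors 6 rose, against the same 15.6% of all genes, including Rxra at 82.8 and 80.8 CPM in (B) and 56.2 and 51.3 CPM in (A). In the same comparison 15 of 18 microglia and macrophage markers rose and 1 fell, with a summed level of 8776 to 8815 CPM in (B) and 5107 to 5334 CPM in (A), 3 of 13 astrocyte markers rose and 2 fell, and all 18 cell cycle genes fell. Abca1 was 0.0665 and 0.0666 times the microglia and macrophage sum in (B) and 0.0527 and 0.0598 times in (A). Their part in the pump levels was not tested.

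With CCL1 and CCL20 added to the co-culture, some members were slightly lower. Between iB-Tregs (C) and (B), 4 of 28 members fell and none rose, against 3.58% of 14713 genes that passed, 1.24% as rises and 2.33% as falls, and 24 of the 28 had a negative log2 fold change. The median was -0.17 against 0.002 over all genes. At an unadjusted p under 0.05, 12 members were lower and 1 was higher by edgeR, and DESeq2 called none higher. The share of all genes at this unadjusted threshold was not counted, and the shares above are for adjusted p. Abca1 was at 477 and 421 CPM in (C) and 586 and 584 CPM in (B) (log2 fold change -0.38 ± 0.05 SE, adjusted p = 0.00018), and it passed with each library left out. Stard4 was at 72.8 and 75.7 CPM in (C) and 91.3 and 87.8 CPM in (B) (-0.27, adjusted p = 0.0068), Sqle at 37.9 and 36.6 CPM against 46.0 and 43.3 CPM (-0.27, adjusted p = 0.036), and Insig1 at 107 and 104 CPM against 121 and 122 CPM (-0.21, adjusted p = 0.021). Both (C) libraries lay below both (B) libraries in these 4 genes, which were picked by the same test.

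None of the 4 calls between (C) and (B) held under every alternative. Sqle and Insig1 did not pass without any 1 of the 4 libraries (adjusted p 0.098 to 0.40 and 0.052 to 0.31), and Stard4 not without B-Treg1 (0.18), B-Treg2 (0.068) or C-Treg1 (0.063). In an edgeR fit of all 10 libraries none of the members passed, Abca1 included (adjusted p = 0.059). At an unadjusted p under 0.05, for which no share of all genes was counted, 6 were lower. Of the 18 enzymes 17 had a negative log2 fold change, from -0.39 for Acat2, and Hsd17b7 alone had a positive one of 0.12. The 16 enzymes summed to 429 and 428 CPM in (C) and 475 and 478 CPM in (B), and the groups did not overlap. Hmgcs1 was at 61.6 and 62.9 CPM in (C) and 69.2 and 73.5 CPM in (B) (adjusted p = 0.11). Abcg1, Srebf1 and Scap stayed within 0.03 of 0 on the log2 scale. Of 13 fatty acid synthesis genes 4 fell, among them Fads2, Scd1 and Fads1, and 9 of 18 microglia and macrophage markers fell too, with a summed level of 7753 and 8270 CPM in (C) and 8815 and 8776 CPM in (B). Of 13 astrocyte markers 5 fell, with a median log2 fold change of -0.43, and the part of either cell type was not tested. Ch25h rose, at 30.4 and 26.8 CPM in (C) and 15.4 and 17.3 CPM in (B) (adjusted p = 5.1e-05).

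**Figure D5:**
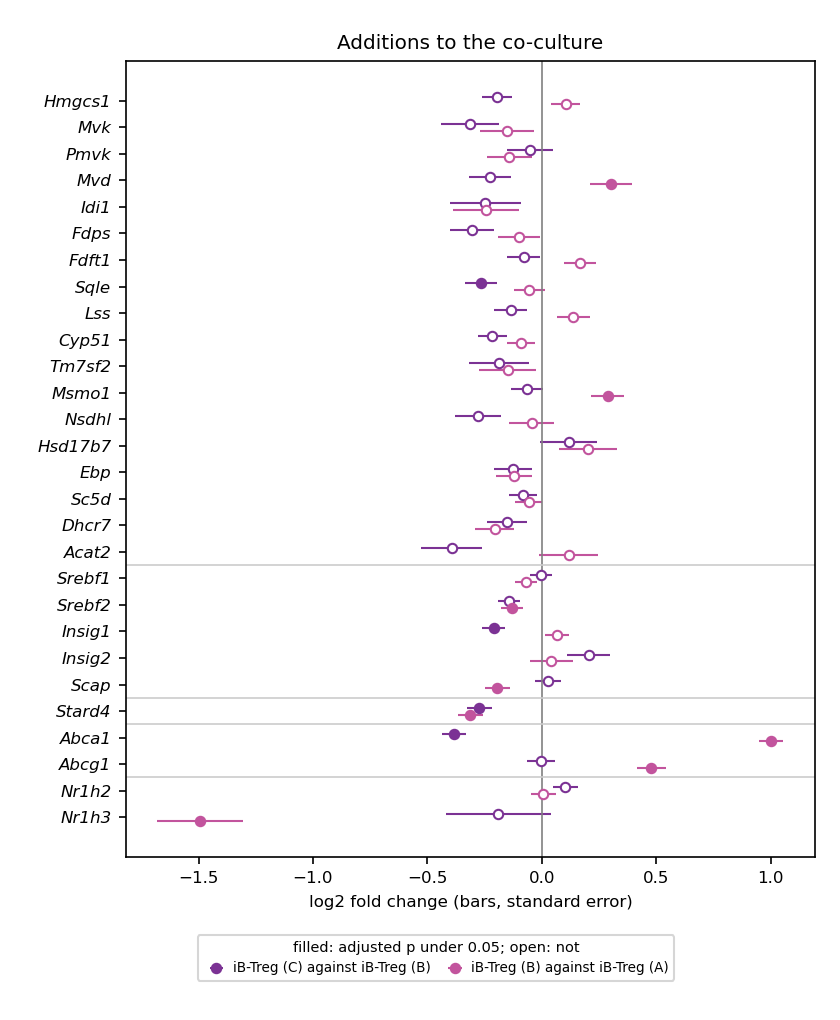
Log2 fold change of iB-Tregs (C) against (B) and of (B) against (A) for all 28 members, with standard errors from edgeR, ordered by role. Filled points passed an adjusted p of 0.05. From (B) against (A), Abca1 lies at 1.00 and Nr1h3 at -1.49, and from (C) against (B) 24 of 28 members lie below 0.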

How the data were processed

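RNA-seq of Tregs gave 10 libraries, 2 in each of 5 groups. The authors deposited counts per gene, not normalized and not pooled, with exonic lengths. Reads were trimmed with Trim Galore, aligned with HISAT2 and counted with featureCounts per the study's methods, whereas HTSeq 0.6.1 and HISAT2 2.0.1 are listed in the notes of the submitters, so the counter is uncertain. The build is GRCm38.

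Spleen and brain counts stood 0 to 19 rows below their gene IDs in 6 stretches of the table. Rows were moved back by the slide of each stretch, at which log2 counts correlated best with the iB-Treg columns (r = 0.884 to 0.922 across genes, next best slide at most 0.347). The best slide was the same in 122 of 122 windows of 200 rows. IDs outside these stretches were not used for these columns, which leaves 30407 unplaced. Every spleen and brain value rests on this step.

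CPM values are scaled by TMM over the 10 libraries (over the 6 iB-Treg libraries for Hmgcs1 and Acat2). For differences, edgeR 4.0.16 was run under R 4.3.3 (TMM, filterByExpr, quasi-likelihood F test, Benjamini-Hochberg over all genes tested, threshold 0.05) in 7 comparisons. Ischemia-Tregs against SP-Tregs used those 4 libraries, iB-Tregs against either used all 10, and comparisons among iB-Tregs used those 6. Both libraries of each group differed by more than sampling noise. Alternatives were size factors of DESeq2, DESeq2 1.42.0 as the test, no low-count filter, mitochondrial genes left out, another set of libraries in the fit, the first 2 stretches only, a replicate block, and each library left out. The tests were checked on simulated counts.

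All 28 members are accounted for. Of other lists at most 3 called genes per comparison that reached 10 CPM are named, by absolute log2 fold change. The members and lists were chosen with earlier results of these data known. Promoter windows came from RefSeq, GRCm38.p6.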

Additional observations from a re-analysis of the deposited data

How the results depend on the processing

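Over all members, comparisons and alternatives, 1685 of 1816 values kept their side of the threshold, and 96 lost and 33 gained a call. The 1685 include values that changed sign but passed in neither fit. One such value was Mvk in Ischemia-Tregs against SP-Tregs (log2 fold change 0.41, and -1.24 with a library left out). A further 2 values that had not passed did so in the opposite direction. Those 2 were Hsd17b7 in iB-Tregs (A) against SP-Tregs without SP-9 (log2 fold change 0.83, and -0.41 without SP-10) and Mvk in iB-Tregs (B) against Ischemia-Tregs without Ischemia-3 (-0.57, and 1.8 without Ischemia-4).

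With 1 fit of all 10 libraries, Ischemia-Tregs against SP-Tregs gave 5030 called genes in place of 2985 and 13 members that fell in place of 6, iB-Tregs (B) against (A) gave 2145 genes in place of 4435, with 2 members that rose and 2 that fell in place of 4 and 4, and (C) against (B) gave 21 genes in place of 526 and 0 members that fell in place of 4. The fit of all 10 libraries tested 13000 genes, in place of 10337 between Ischemia-Tregs and SP-Tregs and 14713 among iB-Tregs. DESeq2 gave 289 genes and 2 members that fell in (C) against (B), and 1 member that fell in (A) against SP-Tregs in place of 2. DESeq2 did not call Cyp51, Msmo1 and Nr1h2 in Ischemia-Tregs against SP-Tregs, Idi1 in (A) and Fdps and Scap in (C) against SP-Tregs, Mvd and Srebf2 in (B) against (A), and Sqle and Insig1 in (C) against (B). Without a low-count filter the count of members that fell in (A) against SP-Tregs was also 1. The first 2 stretches alone, which hold fewer genes, gave 1 member that fell in (A), (B) and (C) against SP-Tregs, in place of 2, 3 and 3. The cause was not tested for the other settings.

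Leaving out 1 library at a time gave 1792 to 3169 genes and 1 to 6 members that fell in Ischemia-Tregs against SP-Tregs, 1 to 2 members that fell in (A) against SP-Tregs and in (B) against Ischemia-Tregs, 2901 to 4334 genes with 2 to 5 members that rose and 2 to 4 that fell in (B) against (A), and 88 to 366 genes with 1 to 2 members that fell in (C) against (B). The lone library left in a group is then assumed to vary like the others.

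Replicate numbers of the iB-Tregs did not pair the samples (correlation of deviations 0.015 for (A) and (B), -0.014 for (A) and (C) and 0.008 for (B) and (C)). With a replicate block, (B) against (A) gave 4291 genes, 4 members that rose and 3 that fell, with Srebf2 lost (adjusted p = 0.052), and (C) against (B) gave 499 genes, 0 members that rose and 4 that fell. The spleen and brain columns carry no replicate numbers of the labels. The precision of Nr1h3, Tm7sf2 and Mvd in the shallower brain and spleen libraries is limited by counts under 10 CPM.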
